A study of Mus musculus with 11 samples.

Results

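The regions described here are the microRNA gene regions of a lamin B1 map of mouse oligodendrocyte precursor cells. They were chosen by name, as all rows of the deposited table whose symbol starts with Mir and a digit or with Mirlet7, and 6 rows of host transcripts whose symbols end in hg were left out. The rule found 1035 of 21534 regions, with 994 distinct symbols. A region was called clustered when another such region lay within 50 kb of it, counted between the nearest ends, and single otherwise. There were 383 clustered regions in 109 clusters and 652 single regions.

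The assay was DamID-seq, in which the bacterial methyltransferase Dam is fused to lamin B1 (LMNB1), a filament protein that lines the inner face of the nuclear envelope, so that DNA near the envelope gains adenine methylation. Wild-type precursor cells from the cortex of C57BL/6 mice at postnatal day 7 were transduced by lentivirus with Dam-LMNB1 or with Dam alone, and after 1 day were kept for 72 h in proliferation medium (called OPC here) or in differentiation medium (called OL). Scores were available for 3 OPC libraries (8, 9 and 10) and 3 OL libraries (18, 19 and 20) of Dam-LMNB1, each set by the authors against a pool of Dam libraries from the same medium, 2 in OPC and 3 in OL. All cells therefore carried a lentiviral Dam construct, the OL cells were defined by their medium, and the labels leave unsaid if each library had its own culture, if pups were pooled and what share of the cells had differentiated. The assay reads DNA and no RNA, so the cell type could not be checked against marker expression and no statement about microRNA levels can be made.

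A score above 0 is read as more Dam-LMNB1 than Dam methylation, that is, as contact with the lamina. Since no source used here gives the log base, differences are in score units and not folds. Read depth is unknown, so counting error could not be given. The tests were limma's, of the OPC mean and the OL mean against 0 and of OL against OPC (two-sided, Benjamini-Hochberg adjustment over all 21534 regions, threshold 0.05). Their p-values reflect how far these 6 libraries scatter, which may be technical scatter, and hold no variation of the Dam controls, because the scores of 1 condition have a common Dam pool.

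MicroRNAs are short RNAs that guide Argonaute proteins to messenger RNAs, mostly through pairing of the seed, bases 2 to 8 of the mature strand. A primary transcript is cut by Drosha and Dgcr8 into a hairpin, which Xpo5 exports and Dicer1 trims. In the oligodendrocyte lineage, loss of Dicer1 is known to impair myelination, and miR-219, miR-338 and miR-138 are known to favour differentiation. Many microRNAs lie in introns of other genes, many are transcribed together from clusters, and some mature sequences are encoded at several loci of the genome.

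The sequences below belong to the loci that the results turn on. They are RefSeq sequences for GRCm38.p6, 5′ to 3′, with the seed in capitals. The first set holds microRNAs of the oligodendrocyte lineage, among them miR-23a, which is known to repress lamin B1 in oligodendrocytes.
mmu-miR-219a-5p: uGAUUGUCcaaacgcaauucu
mmu-miR-338-3p: uCCAGCAUcagugauuuuguug
mmu-miR-138-5p: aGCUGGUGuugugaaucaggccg
mmu-miR-23a-3p: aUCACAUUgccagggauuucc
mmu-miR-7a-5p: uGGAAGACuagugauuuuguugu
mmu-miR-17-5p: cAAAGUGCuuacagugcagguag

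The second set holds mature sequences that are encoded at more than 1 locus and whose loci had unlike scores in at least 1 condition.
mmu-miR-218-5p: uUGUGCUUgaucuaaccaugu
mmu-miR-692: aUCUCUUUgagcgccucacuc
mmu-miR-135a-5p: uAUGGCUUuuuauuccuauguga
mmu-miR-30c-5p: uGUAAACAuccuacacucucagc
mmu-miR-128-3p: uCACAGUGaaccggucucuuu

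The third set shows 3 members of the let-7 family, which share 1 seed and all lay on the low side, and 2 microRNAs of the large clusters on chromosomes 12 and X.
mmu-let-7a-5p: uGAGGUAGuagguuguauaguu
mmu-let-7d-5p: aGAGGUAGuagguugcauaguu
mmu-let-7i-5p: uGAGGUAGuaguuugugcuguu
mmu-miR-379-5p: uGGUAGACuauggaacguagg
mmu-miR-465c-5p: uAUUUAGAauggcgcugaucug

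The last set holds microRNAs with a matched entry among the regions of the 8 largest falls, at most 1 per cluster, and of the 2 largest rises.
mmu-miR-568: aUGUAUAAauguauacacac
mmu-miR-6381: cAGGAUGCuggugacaugagu
mmu-miR-708-5p: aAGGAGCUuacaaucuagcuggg
mmu-miR-6339: gAUGCCUUuguccucaguguuag
mmu-miR-21c: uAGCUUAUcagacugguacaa
mmu-miR-488-3p: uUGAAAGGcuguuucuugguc
mmu-miR-511-3p: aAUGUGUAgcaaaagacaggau
mmu-miR-1983: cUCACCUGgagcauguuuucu
mmu-miR-1950: uCUGCAUCuaaggauaugguca

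A microRNA region is much longer than its hairpin. Of the 826 regions whose symbol had a RefSeq hairpin on the same chromosome, 814 (98.5%) began 10000 bp upstream of that hairpin and ended 2000 bp downstream of it, within 1 bp. The median width was 12.1 kb, and 14 regions were wider than 13 kb. A score thus describes the hairpin with its flanks, and 297 regions overlapped another microRNA region and shared DNA with it. Counting each set of overlapping regions once left 815 units.

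In OPC, 267 of the 1035 microRNA regions had a mean score above 0 and 738 a mean below 0 by limma, while 25.5% of all regions were above and 71.4% below. The median OPC score was −1.57 over the microRNA regions and −1.54 over all regions. The share of microRNA regions above 0 per OPC library depended on the 4 largest clusters. It was 18.1% on average without them and 18.4% with each set of overlapping regions counted once. The share over all regions was 27.0%. That share is not like for like, because there no clusters were left out and no overlapping regions were merged. In OL, 264 were above 0 and 733 below (background 25.9% and 70.9%), with a median of −1.44 beside −1.47 over all regions. The share of microRNA regions above 0 was 28.1%, 26.4% and 26.9% in the OPC libraries (8, 9, 10) and 27.9%, 26.2% and 26.9% in the OL libraries (18, 19, 20). These shares overlapped, with means of 27.1% ± 0.898 (SD, n = 3) and 27.0% ± 0.877 (SD, n = 3) and p = 0.8 in a two-sided exact permutation test, in which 3 against 3 libraries cannot go below 0.1. In all 6 libraries alike, 257 regions were above 0 and 721 below, counts that were not set against all regions.

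At the top of the OPC range stood Mir6411 on chromosome 10 (chr10:104277268-104289376, mm10), with scores of 3.0, 2.94 and 2.80 in OPC and 2.83, 3.03 and 3.08 in OL. A region of Mir684-1 on the same chromosome (chr10:129655754-129667839), Mir3961, Mir7094-1, Mir3059 and Mir1912 followed in OPC with means from 2.58 to 2.74. The symbol Mir684-1 stands for 8 regions of the table, of which another, on chromosome 2, had an OPC mean of 2.07 and the other 6 lay below 0, the lowest at −2.25. Mir1912 and its neighbour Mir764, in an intron of the serotonin receptor gene Htr2c on the X chromosome, had OPC means of 2.58 and 2.31. Mir764 was higher in OL, with 2.19, 2.37 and 2.37 in OPC and 2.97, 2.73 and 2.71 in OL, so that the groups did not overlap (difference 0.50, adjusted p = 0.00542, limma).

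At the bottom stood Mirlet7d (chr13:48534011-48546114), with −3.92, −3.76 and −3.12 in OPC and −3.31, −3.17 and −2.76 in OL. Its groups overlapped, and the difference of 0.52 did not pass (adjusted p = 0.0772, limma). Mir7669, Mir6951, Mir467f, Mir693 and Mir7227 were the next lowest in OPC, from −3.57 to −3.08, each inside a longer gene region (Ubap2l, Azin1, Fxr2, Xpo5 and Arid1a). Mir693 shares its DNA with Xpo5, the exporter of microRNA hairpins.

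Clustered regions had a higher median than single ones in each library, and without the 4 largest clusters this gap was close to 0 in OPC. Of the 383 clustered regions, 156 were above 0 in OPC and 211 below (median −0.52), against 111 and 527 of the 652 single regions (median −1.75). The clustered median exceeded the single median by 1.24, 1.15 and 1.13 in the OPC libraries and by 1.08, 1.16 and 0.91 in the OL libraries, in the same order. These gaps overlapped between the conditions, at 1.176 ± 0.058 (SD, n = 3) and 1.05 ± 0.129 (SD, n = 3), with an exact permutation p of 0.3 (0.6 after adjustment over 2 measures). Clusters with 10 or more regions held 125 of the clustered regions, of which 112 were above 0 and 4 below, with a median of 1.44. The other 258 clustered regions had a median of −1.71, with 44 above 0 and 207 below, close to the single ones. Without the 4 largest clusters the OPC gap was 0.0261, and with each set of overlapping regions counted once it was 0.00555.

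**Figure D1:**
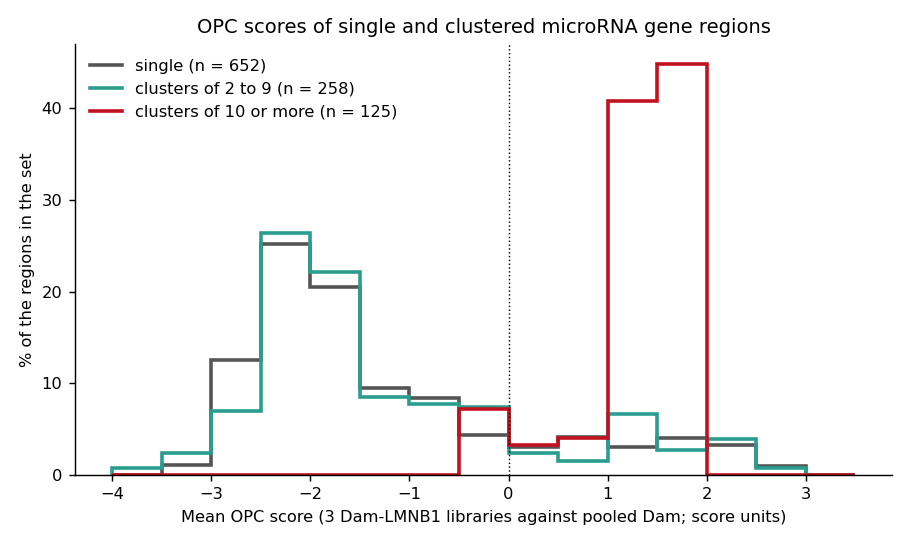
Mean OPC score (x axis, score units) against the percentage of regions in each set (y axis) in bins of 0.5, for single microRNA regions, clusters of 2 to 9 regions and clusters of 10 or more. The first 2 curves lie almost on each other, with most regions below 0, while the 125 regions of the largest clusters centre on a median of 1.44.

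Taken as units, 18 of the 109 clusters had all of their regions at a mean above 0 in OPC, 88 had all below and 3 had regions on both sides. In OL the counts were 18, 87 and 4. The median of the cluster medians was −1.77 in OPC and −1.51 in OL. The 3 split clusters in OPC were a group of 15 regions beside Meg3 on chromosome 12, the muscle cluster of Mir1b, Mir133a-1 and Mir1a-2 on chromosome 18, and Mir384 with Mir325 on the X chromosome.

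The largest cluster held 58 regions in an intron of the Polycomb gene Sfmbt2 (chr2:10456662-10520279), where tandem copies of the miR-466, miR-467 and miR-669 families lie and are known for expression in placenta and embryonic stem cells. All 58 were above 0 in both conditions, with OPC means from 1.1 to 1.9 (median 1.54) and OL means from 1.16 to 1.93 (median 1.69). The region of Sfmbt2 as a whole, which contains them, scored 1.33 in OPC and 1.40 in OL. In OL, 15 regions were higher and none lower by limma, where 23.0% of all regions were higher and 10.9% lower (18 and none after scaling all libraries to a common mean and SD). At an unadjusted p under 0.05, 18 were higher and 0 lower. The count of 15 fell to 7 without OPC library 8, to 8 without OPC library 9 and to 8 without OL library 19. Those 15 lay between 30.4 and 47.3 kb from the start of the cluster, where 19 regions were measured. Their differences ran from 0.24 to 0.39. Because these copies are nearly identical and no source used here says how reads were placed between them, the value of a single copy is uncertain, and several share 1 symbol.

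The imprinted locus between Dlk1 and Dio3 on chromosome 12, whose microRNAs are made from the maternal chromosome with the long RNAs Meg3, Rian and Mirg, held the second largest cluster and another of the 4 largest. The 33 regions from Mir882 to Mir3072 (chr12:109672196-109749960) were all above 0 in OPC, with a median of 1.15 in OPC and 0.93 in OL. Mir379 began at 1.91, 1.54 and 1.57 in OPC and stood at 1.26, 1.21 and 1.36 in OL, with all OL libraries lower (difference −0.40, adjusted p = 0.0176, limma). Mir882, Mir379 and Mir453 fell and no region rose in this cluster by limma, where 10.9% of all regions fell and 23.0% rose. At an unadjusted p under 0.05, 7 were lower and 0 higher. The call of Mir379 was lost without OL library 19 and that of Mir453 without OPC library 9. The 3 falls became 1 without OL library 19, 2 without OPC library 8 or 9, 6 without OL library 18 and 7 without OPC library 10. The OPC mean was 1.67 at Mir379 and 0.68 at Mir3072, the far end of the cluster.

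The 15 regions from Mir673 to Mir370 (chr12:109561989-109620336), more than 50 kb upstream along the same transcription unit, lay near 0. Their medians were −0.15 in OPC and −0.30 in OL. Mir673 scored 0.81, 0.50 and 0.88 in OPC and 0.38, 0.04 and 0.28 in OL, while Mir434 scored −0.19, −0.30 and −0.31 in OPC and −0.20, −0.35 and −0.30 in OL. Mir673 was above 0 in all libraries and fell (difference −0.50, adjusted p = 0.0123), whereas the Mir434 groups overlapped. OPC library 8 stood apart here: the median of the 15 regions was 0.31 in it and −0.26 and −0.24 in libraries 9 and 10, and Mir337, Mir540 and Mir665 had a mean above 0 with it. Mir673, Mir493 and Mir370 were lower in OL and none of the 15 was higher by limma. Over all regions 10.9% were lower and 23.0% higher. At an unadjusted p under 0.05, 6 of the 15 were lower and 0 higher. The call of Mir493 was lost without OPC library 8 or 9 and without OL library 19 or 20. The neighbouring genes had OPC means of −0.84 at Dlk1, 0.22 at Meg3, −0.37 at Rtl1, 0.69 at Rian and 1.04 at Mirg.

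The fixed list of Meg3 to Mirg microRNAs held 50 symbols, of which 39 were in the table. In OPC 32 of the 39 were above 0 and 2 below, and in OL 31 were above and 5 below. Over all regions 25.5% were above 0 in OPC and 25.9% in OL. From OPC to OL 5 of the 39 (12.8%) fell and none rose, where 10.9% of all regions fell and 23.0% rose. The counts were the same after scaling to a common mean and SD. The median difference was −0.22 against 0.10 over all regions. At an unadjusted p under 0.05, 10 were lower and 0 higher. With 1 library left out the count of falls was 3 without OPC library 9 or OL library 19, 10 without OPC library 10 and 8 without OL library 18.

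The third largest cluster, 19 regions from Mir743 to Mir465 on the X chromosome (chrX:66774756-66849125), encodes microRNAs known for expression in testis. All 19 were above 0 in both conditions, with medians of 1.74 in OPC and 2.17 in OL. Mir465c-2 scored 1.40, 1.38 and 1.44 in OPC and 2.15, 2.41 and 2.26 in OL, and Mir471 scored 1.5, 1.67 and 1.76 in OPC and 2.66, 2.48 and 2.40 in OL. Both pairs of groups were far apart, with a difference of 0.87 in each (adjusted p = 2.91e-04 for Mir465c-2 and 5.41e-04 for Mir471, limma). In OL 15 of the 19 regions were higher and none lower, and the counts were 15 and none after that scaling and 17 and none after quantile normalization. At an unadjusted p under 0.05, 17 were higher and 0 lower, and 11 to 17 were called with 1 library left out. The median difference was 0.57, beside 0.12 over the 842 regions of the X chromosome, of which 25.1% were higher and 6.53% lower. The rise was uneven, from 0.16 at the second Mir465b-1 region to 0.87, and the stretch from Mir883b to Mir881 reached 2.45 to 2.51 in OL from 1.65 to 1.78 in OPC. Slitrk2, a neighbouring gene, scored −0.52 in OPC and −0.31 in OL. The fixed list of X-linked testis microRNAs, which also holds Mir201, Mir547 and Mir509, had 14 of 21 regions higher and none lower. Those 3 form a separate cluster on the X chromosome, with 0 calls and a median difference of −0.08.

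**Figure D2:**
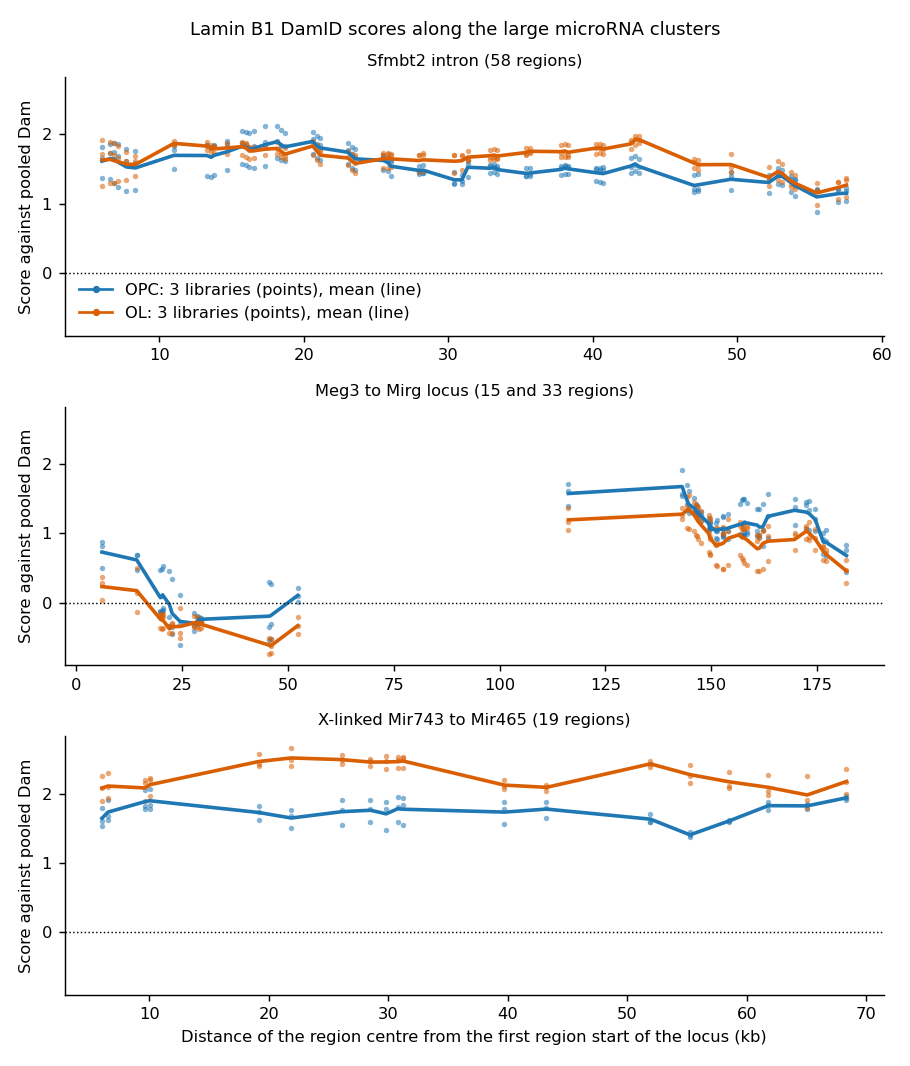
Scores (y axis, score units) of the 6 libraries along the 4 largest clusters, against the distance in kb of each region's centre from the first region of the locus (x axis). Points are libraries and lines are means. The means of the Sfmbt2 regions stay between 1.1 and 1.93, the chromosome 12 locus passes from near 0 to above 1, and the OL line of the X cluster lies above the OPC line along its whole length.

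The next cluster in size, 9 regions of the Mir344 family on chromosome 7, had medians of 1.1 in OPC and 1.07 in OL. By limma 2 regions were lower and none higher (2 and 0 at an unadjusted p under 0.05), against 10.9% and 23.0% of all regions. Only 1 was lower without OPC library 8 or 9 or OL library 19 or 20. Most other clusters lay below 0. In the Mir17 cluster on chromosome 14, Mir17 scored −0.56, −0.91 and −0.76 in OPC and −0.81, −1.09 and −0.81 in OL, and its groups overlapped. Its X-linked paralogue, the 5 regions from Mir363 to Mir18b, had OPC means from −0.49 to −0.47. Mir384, a brain microRNA with the miR-30 seed, scored 0.26, 0.28 and 0.26 in OPC and 0.90, 1.21 and 0.80 in OL. It rose by 0.70 (adjusted p = 0.00153), while its neighbour Mir325 stayed below 0 in all 6 libraries.

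A mature sequence was found in RefSeq for the symbols of 878 of the 1035 regions, and 25 sequences were encoded at 2 or more separate loci. The 25 are not a full count: let-7a, miR-124, miR-1a and miR-133a have several loci among the regions and are missing. The chromosome 18 cluster of Mir1b, Mir133a-1 and Mir1a-2 had OPC means from −0.04 to 0.20. Mir1a-1 and Mir133a-2 on chromosome 2 had OPC means of −1.34 and −0.85, in rising order. For 19 of the 25 all loci were below 0 in OPC, for 3 all were above and for 3 the loci lay on both sides. By limma, 71.4% of all regions were below 0 in OPC and 25.5% above. The 25 hold both strands of miR-9 and of miR-344, so those loci were counted more than once. The range between loci of 1 sequence exceeded 1 for 8 of the 25, with a median range of 0.54. The 2 loci of miR-218-5p lie in introns of the paralogous guidance genes Slit2 and Slit3. Mir218-1 in Slit2 (chr5:48213941-48226051) scored 1.87, 2.04 and 1.93 in OPC and 2.24, 2.16 and 2.12 in OL. Mir218-2 in Slit3 (chr11:35606815-35618925) scored −1.23, −1.37 and −1.56 in OPC and −1.22, −1.47 and −1.21 in OL. The same mature microRNA was therefore encoded on both sides of 0 in all 6 libraries.

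Mir692-3 likewise had an OPC mean of 0.87 ± 0.23 (SD, n = 3), against −2.77 ± 0.16 (SD, n = 3) at Mir692-1 and −2.28 ± 0.15 (SD, n = 3) at Mir692-2. Mir135a-2 scored 0.27, −0.06 and 0.11 in OPC and −0.59, −0.38 and −0.33 in OL, while Mir135a-1 lay at −1.40 and −1.22. The OPC mean of Mir135a-2 did not differ from 0 (adjusted p = 0.171, limma), and its OL libraries were all lower (difference −0.54, adjusted p = 0.00483).

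In OL, 4 sequences had loci called on both sides of 0, against 2 in OPC. The additional ones were miR-30c-5p and miR-128-3p. Mir30c-2 scored −0.26, −0.31 and −0.17 in OPC and 0.37, 0.19 and 0.31 in OL, passing from below to above 0 (difference 0.54, adjusted p = 0.0014), while Mir30c-1 in Nfyc stood at −2.28 and −2.45. Mir128-1 in R3hdm1 scored −0.20, −0.16 and −0.15 in OPC and 0.16, 0.28 and 0.33 in OL. Mir128-2 in Arpp21 scored −0.67, −0.41 and −0.49 in OPC and −1.61, −0.96 and −1.18 in OL. Thus the loci of miR-128-3p, a neuronal microRNA, moved in opposite directions, by 0.42 (adjusted p = 0.00302) and −0.72 (adjusted p = 0.00712). The loci of miR-138-5p did so too, with Mir138-1 going from −0.44 to −0.94 (adjusted p = 0.0107) and Mir138-2 from −2.22 to −1.85 (adjusted p = 0.0304), the latter not passing after scaling to a common mean and SD.

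**Figure D3:**
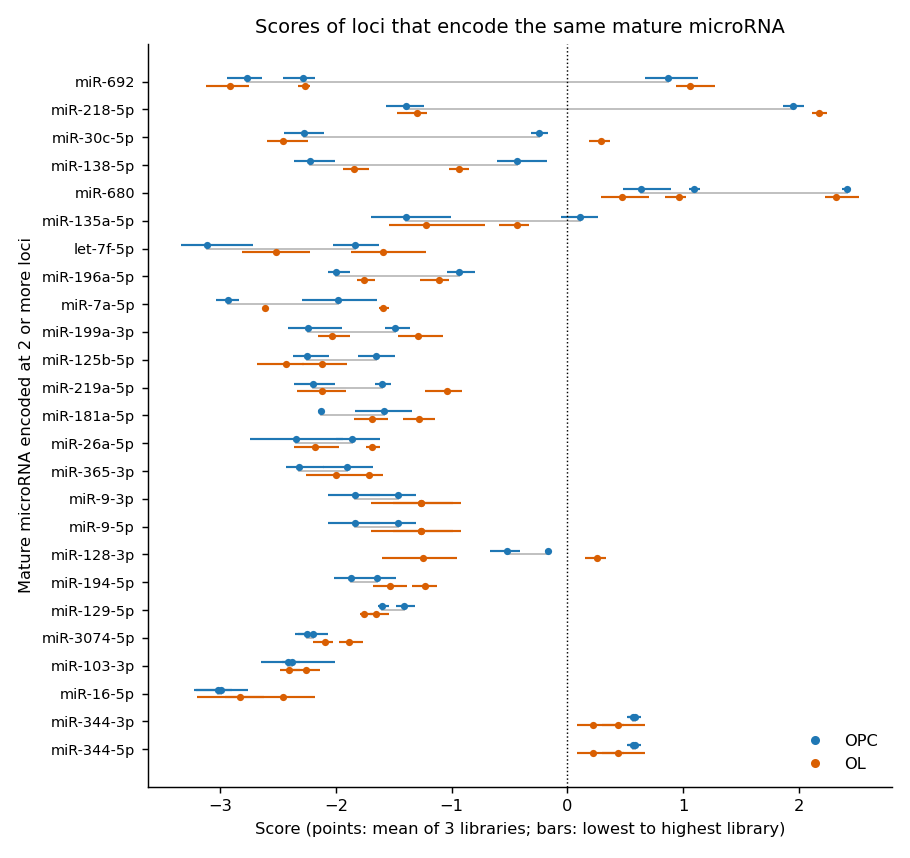
Scores (x axis) of loci that encode the same mature microRNA (y axis, 25 sequences ordered by the OPC range); points are means of 3 libraries and bars run from the lowest to the highest library, in OPC and OL. The loci of miR-692 and miR-218-5p are widely apart across 0, while 19 sequences have all loci below 0 in OPC.

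Seeds group microRNAs that can share targets. The largest group found was the let-7 seed GAGGUAG, with 11 genes at 8 loci, all below 0 in OPC, as were 71.4% of all regions. Their OPC means ran from −3.60 at Mirlet7d to −0.65 at Mirlet7e. Seed groups can be incomplete, and a mature sequence was found for the symbols of 878 of the 1035 regions. The region of Mirlet7a-2 is not among the 11. Groups at several loci could also be split. Of the 10 genes with the seed AGCAGCA of miR-15 and miR-16, 3 were above 0 by limma (the highest at 2.28) and 7 below. The 7 included Mir15a, Mir16-1, Mir15b, Mir16-2, Mir195a and Mir497. The 3 above 0 were therefore among Mir6353, Mir6419, Mir195b and Mir6342. Mir15a and Mir16-1, next to each other on chromosome 14, had OPC means of −3.03 and −3.02. The 6 genes with the seed GUCAGGC lay at 2 loci of the Mir344 family, and all 6 had a mean above 0, 5 of them with a limma call.

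The oligodendrocyte lineage list held 21 symbols, 17 of them in the table. By limma, all 17 were below 0 in OPC and 16 in OL, with medians of −1.60 and −1.04. Over all regions 71.4% were below 0 in OPC and 70.9% in OL. From OPC to OL 6 rose and 1 fell, where 23.0% of all regions rose and 10.9% fell. After scaling to a common mean and SD 3 rose and 1 fell, and the median difference of 0.07 turned to −0.04. The count of 6 fell to 2 without OPC library 9, where Mir338, Mir146, Mir204 and Mir138-2 were not called. Mir219a-1, inside the region of Rxrb (chr17:34022982-34035092), scored −1.63, −1.52 and −1.66 in OPC and −0.99, −1.23 and −0.91 in OL (difference 0.56, adjusted p = 0.00368, limma). Its antisense partner Mir219c, whose region overlaps it, scored −2.07, −1.99 and −2.13 in OPC and −1.45, −1.67 and −1.70 in OL (difference 0.45, adjusted p = 0.00709). The other locus of miR-219a, Mir219a-2, scored −2.01, −2.36 and −2.21 in OPC and −1.91, −2.34 and −2.12 in OL, and its groups overlapped. The regions that rose at the miR-219 loci were thus those on chromosome 17, and they stayed below 0. A difference between the loci was not tested.

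Mir338, in an intron of Aatk, scored −1.84, −2.04 and −2.18 in OPC and −1.60, −1.66 and −1.67 in OL, which passed as deposited (difference 0.38, adjusted p = 0.0188). Mir146 was the member nearest to 0 in OL, with −0.61, −0.50 and −0.28 in OPC and −0.21, −0.02 and −0.01 in OL (adjusted p = 0.0175). Mir204 in Trpm3 rose as well, from −1.02 to −0.60 (adjusted p = 0.0365). The call of Mir338 held in 5, that of Mir204 in 5, that of Mir146 in 4 and that of Mir138-2 in 3 of 9 other settings (6 with 1 library left out, 2 scalings and no variance trend), whereas Mir219a-1, Mir219c and Mir138-1 were called in 9 of 9. Mir23a stood at −1.89, −1.85 and −2.04 in OPC and −1.92, −2.23 and −1.89 in OL, and its groups overlapped. The miR-7a loci, listed in the table as Mir7-1 and Mir7-2 and not among the 17, had OPC means of −2.93 and −1.98 and OL means of −2.61 and −1.59.

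The neuronal list had 17 of 19 symbols in the table, with 1 above 0 (Mir218-1) and 14 below in OPC. Of all regions 25.5% were above 0 and 71.4% below in OPC. From OPC to OL 7 rose and 3 fell, where 23.0% of all regions rose and 10.9% fell. After that scaling 6 rose and 5 fell, beside 3330 and 3261 of all 21534 regions. Mir124a-2, a locus of the most abundant neuronal microRNA, scored −0.76, −1.02 and −0.90 in OPC and −0.39, −0.21 and −0.38 in OL (difference 0.57, adjusted p = 0.00212). Mir132 and Mir212, known as activity-regulated, rose together by 0.45 each, and their regions overlap. Mir153 in Ptprn2 fell by 0.56 (adjusted p = 0.00238), from −1.35, −1.34 and −1.40 to −2.09, −1.83 and −1.87.

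The let-7 list (9 of 9 symbols) was below 0 throughout, with a median of −2.51 in OPC and −2.44 in OL. Over all regions 71.4% were below 0 in OPC and 70.9% in OL. Mirlet7a-1 and Mirlet7f-1, overlapping regions, rose and Mirlet7i fell as deposited (23.0% and 10.9% of all regions), and after that scaling none rose and 1 fell. All 3 calls were lost without OPC library 8, without OPC library 9 and without OL library 19. Of the 23 regions of the list of proliferation and p53 clusters, 21 were below 0 and the other 2, Mir221 and Mir222 on the X chromosome, above. Mir221, known to repress the cell cycle inhibitor p27, scored 1.00, 1.43 and 1.30 in OPC and 1.67, 1.78 and 1.8 in OL (difference 0.50, adjusted p = 0.00786). Mir222, which overlaps it, rose by 0.47 (adjusted p = 0.0128, limma), and no other member of that list passed. These 2 calls were 8.70% of the list, where 23.0% of all regions rose and 10.9% fell. At an unadjusted p under 0.05, 6 were higher and 0 lower, and 4 were called higher without OL library 18 or 19.

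Lists for other cell types were mostly below 0 as well, as were 71.4% of all regions in OPC and 70.9% in OL. The blood and endothelium list had 8 of 11 symbols in the table, all below 0. From OPC to OL 5 rose and none fell by limma (7 and 0 at an unadjusted p under 0.05, 4 and none after that scaling, 3 and none after quantile normalization), where 23.0% of all regions rose and 10.9% fell. Among them was Mir126a in Egfl7, an endothelial microRNA, from −2.12, −2.06 and −2.10 to −1.47, −1.59 and −1.64 (difference 0.53, adjusted p = 0.00207). The other rises were at Mir126b, at Mir145a and Mir143, and at 1 of Mir142 and Mir142b. Mir126a and Mir126b overlap, as do Mir145a and Mir143, and Mir142 and Mir142b, so the 5 rises are not independent. The 10 regions of the list for epithelium, liver, gut and pancreas and the 6 of the pluripotent list were below 0 in both conditions.

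In the list for epithelium, liver, gut and pancreas 3 rose and 1 fell, where 23.0% of all regions rose and 10.9% fell. The median difference of the list was 0.17. Mir192 and Mir194-2, whose regions overlap, rose by 0.41 (adjusted p = 0.0123) and 0.42 (adjusted p = 0.0134), and Mir194-1 by 0.34 (adjusted p = 0.032), the last of these called in 3 of the 9 other settings named above. Mir122, the main liver microRNA, was the member that fell, from −0.42, −0.57 and −0.57 to −0.86, −1.65 and −1.20 (difference −0.72, adjusted p = 0.0116). In the pluripotent list 1 of 6 rose and 1 fell, beside 23.0% and 10.9% of all regions. The median difference of this list was −0.32. Mir290a of the embryonic stem cell cluster rose from −1.33, −1.01 and −1.29 to −0.30, −0.48 and −0.63 (difference 0.74, adjusted p = 0.00185). The other 5 members form the Mir302 cluster on chromosome 3, whose regions overlap, and their differences ran from −0.38 to −0.30. Of these, Mir302b fell (adjusted p = 0.0303), a call that was lost without OPC library 8 and without OL library 18 or 19, and 3 of the 5 fell after quantile normalization. In the muscle list 3 of 8 rose and 1 fell, beside 23.0% and 10.9% of all regions, and 0 or 1 rose with any 1 library left out. In that list 1 of 8 was above 0 in OPC, beside 25.5% of all regions. This was Mir133b, with 0.58, 0.56 and 0.58 in OPC and 1.02, 0.83 and 0.69 in OL. Its region was 1 of the wide ones.

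The genes of the microRNA machinery were all below 0, 12 of 12 in each condition by limma, where 71.4% of all regions were below in OPC and 70.9% in OL, with a median of −2.28 in OPC and −2.32 in OL. Drosha and Xpo5 were higher in OL and Dicer1 and Ago3 lower, where 23.0% of all regions were higher and 10.9% lower. After that scaling 1 was higher and 3 lower, and the median difference of 0.08 turned to −0.06. The call of Drosha was lost without each of the 3 OPC libraries and without OL library 18 or 20, which left 1 higher. Dicer1 scored −1.80, −2.01 and −1.94 in OPC and −2.47, −2.66 and −2.32 in OL (difference −0.57, adjusted p = 0.00519). Xpo5 scored −2.86, −2.90 and −2.65 in OPC and −2.24, −2.29 and −2.47 in OL (difference 0.47, adjusted p = 0.00856).

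From OPC to OL 256 microRNA regions were higher and 93 lower by limma, where 23.0% of all regions were higher and 10.9% lower. Of the calls 73.4% were higher, and the share over all regions was 67.9%. A common mean and SD for all libraries gave 182 higher and 124 lower (59.5% higher, beside 50.5% over all regions), and it moved the median difference over all regions from 0.10 to 0.02. The 3 OL libraries were all above the 3 OPC libraries in 311 regions and all below in 123, against 33.5% and 15.4% of all regions. Most moves were small, the median being 0.43 for calls to higher and −0.48 for calls to lower scores. Of the calls, 83 higher and 41 lower ones exceeded 0.5, and these sizes were not set against all regions. Most called regions did not change sides: 185 higher and 61 lower ones were below 0 in all 6 libraries, and 59 and 19 were above 0 in all 6. These counts were not set against all regions, of which 71.4% were below 0 in OPC by limma.

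Within this set falls were fewer and reached further than rises, with 5 falls and 2 rises over 1. These counts were not set against all regions. Differences of the regions outside the set ran from −1.61 to 1.46. Mir568 on chromosome 16 (chr16:43630654-43642737) scored −1.05, −1.03 and −1.05 in OPC and −2.47, −3.25 and −2.46 in OL, the largest fall of the set (difference −1.69, adjusted p = 5.41e-04). Mir708 in an intron of Tenm4 (chr7:96239423-96251532) scored 1.39, 1.35 and 1.45 in OPC and 0.32, 0.33 and 0.24 in OL (difference −1.1, adjusted p = 5.94e-05). Its libraries were tight in each condition and far apart between them. Mir6381 inside the region of Gbp2 went from 1.28 ± 0.08 to 0.02 ± 0.33 (SD, n = 3 each), and Mir21c from 1.06, 0.89 and 0.91 to 0.26, −0.18 and −0.17. Both reached a level near 0 in OL, with differences of −1.26 and −0.98.

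Mir511, an intronic microRNA of the macrophage receptor gene Mrc1, scored 1.8, 2.13 and 2.01 in OPC and 1.1, 1.05 and 1.08 in OL (difference −0.91, adjusted p = 3.37e-04). Mir488, in an intron of the neuronal gene Astn1, fell from −1.56, −1.71 and −1.68 to −2.69, −2.49 and −2.58 (difference −0.93, adjusted p = 3.21e-04). Mir7212 and Mir6339 fell by 1.25 and 1.01 from OPC means of −0.40 and −0.54. Of these 8 falls, 4 started above 0 and 4 below.

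The largest rise was at Mir1983 (chr13:21894917-21907049), from −1.30, −1.41 and −1.36 in OPC to −0.11, −0.39 and −0.25 in OL (difference 1.11, adjusted p = 1.36e-04). Mir1950, inside the region of the mitotic kinesin gene Kif20b, went from 0.04, −0.34 and −0.20 to 0.68, 1.00 and 0.92 (difference 1.04, adjusted p = 5.41e-04). The next rises, by 0.81 to 0.90, were at Mir6898, Mir697, Mir465c-2, Mir1963, Mir7664 and Mir6968, and all but Mir465c-2 stayed below 0. These 16 regions were called in each of the 9 other settings.

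**Figure D4:**
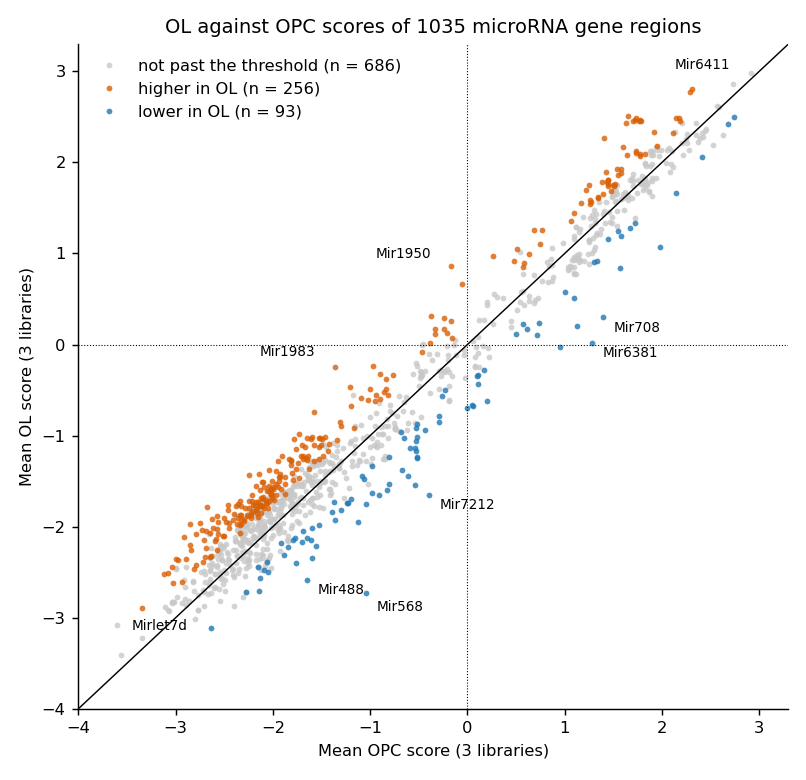
Mean OL score (y axis) against mean OPC score (x axis) of the 1035 regions, coloured by the limma call, with the line of equal scores. Most points lie near the line; 256 regions are higher in OL and 93 lower, and Mir568, Mir7212, Mir6381 and Mir708 lie farthest below it.

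**Figure D5:**
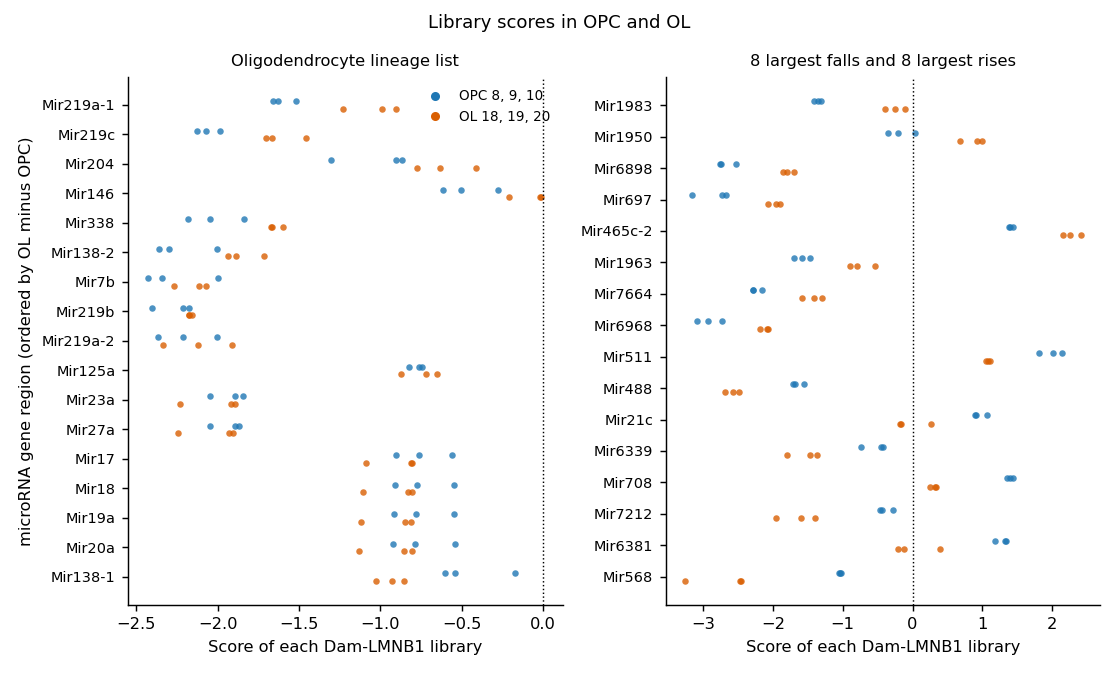
Scores of each library (x axis) for the oligodendrocyte lineage list (left) and for the 8 largest falls and 8 largest rises, at most 1 per cluster (right), with OPC in blue and OL in orange. The lineage regions all lie below 0, and the 2 conditions do not overlap in any region of the right panel.

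Few regions changed sides of 0 in all libraries. Mir1b, Mir370, Mir6239 and Mir6343 went from above 0 in 3 OPC libraries to below 0 in 3 OL libraries with a call (4 of 1035, against 0.52% of all regions). Mir128-1, Mir1927, Mir3099, Mir30c-2, Mir6380, Mir7002 and Mir8118 went the other way (7 of 1035, against 0.697% of all regions). Mir6343 was close to 0 in OPC, at 0.06, 0.01 and 0.08, and stood at −0.57, −0.74 and −0.67 in OL. Mir7002 scored −0.14, −0.24 and −0.75 in OPC and 0.50, 0.19 and 0.27 in OL.

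Of the microRNA regions, 12 had in the authors' deposited table an adjusted p under 0.05, 10 of them higher in OL and 2 lower (Mir708 and Mir488). That was 1.16% of the microRNA regions and 3.14% of all regions. All 12 were called in the same direction by limma.

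MicroRNA regions that lay inside a longer gene region on the same strand had a lower median score than the rest. Of these 549 regions, 110 were above 0 in OPC and 431 below (median −1.82), against 157 and 307 of the other 486 (median −0.99). Among single regions the medians were −1.95 for the 380 inside and −1.17 for the 272 not inside. Counted on either strand, 636 microRNA regions lay inside another region, and 97.6% of them had the sign of that region in OPC. The median gap to it was 0.01 and the median absolute gap 0.20, values that share DNA and are given as a description.

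In 8 cases the microRNA and the region around it were called on opposite sides of 0 in OPC. Mir708 and Mir6394 stood at 1.39 and 1.13 in OPC, whereas the whole 712 kb of Tenm4, a transmembrane teneurin gene, had a mean of −0.40. Both fell in OL, Mir6394 to 0.20, and Tenm4 stood at −0.70. Mir1904 stood at −1.72 inside Pde4d, whose 1314 kb had a mean of 0.37. Mir6357, Mir1b, Mir128-2, Mir1927 and Mir7666 were the other 5. The widest gap without opposite signs was at Mir15b and Mir16-2, at −2.99 inside Ift80 at −1.14.

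Hairpins of regions above 0 were poorer in G and C. The median GC content of the hairpin was 44.2% over 168 regions above 0 in OPC and 53.2% over 623 below, for regions with a matched hairpin. Among single regions 20 of 53 with a hairpin GC content under 40% were above 0, 47 of 157 from 40 to 50%, 12 of 214 from 50 to 60% and 3 of 112 at 60% or more. These are descriptions across loci. The part of base composition in the scores was not tested.

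The 4 largest clusters lie on chromosomes 2, 12 and X. On chromosome 12, 59.0% of the 78 microRNA regions had an OPC mean above 0 against 25.0% of all regions there, on chromosome 2 55.7% of 131 against 32.2%, and on the X chromosome 54.3% of 81 against 47.7%. On chromosome 11, which has no large cluster, the share was 6.17% of 81 against 12.6%. Of the single microRNA regions, 7 of 27 on chromosome 12, 13 of 57 on chromosome 2 and 11 of 22 on the X chromosome were above 0.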

How the data were processed

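DamID-seq scores of 6 Dam-LMNB1 libraries over 21534 gene regions were used. Per the file headers, each deposited score sets 1 library against the Dam pool of the same condition. The authors also deposited a p-value and an adjusted p-value per region. The build was mm10, with BWA 0.7.17 and cutadapt 1.9.1, per the submitters' processing notes. No source used here gives the depth or how scores were made from reads.

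Scores were used as deposited, without a filter, in 1 model of both conditions (limma 3.58.1 in R 4.3.3, trended variance, 9.418 total degrees of freedom). The fit was tested on simulated data over 21534 regions, where it recovered 91 of 100 differences of size 1 and 47 of 100 of size 0.5 for OL against OPC. Library summaries were compared by exact permutation (scipy 1.17.1). Members and lists were chosen with earlier results of these data known. Besides the lists, the text names the 6 highest and 6 lowest regions per condition, the 8 largest rises and falls and the 6 largest clusters, at most 1 region per cluster, the clusters on both sides of 0, and regions chosen after their values were seen (those crossing 0, loci of 1 sequence, gaps to outer regions). Alternatives left out each library, rescaled the libraries, changed the test, the cluster distance or the regions counted. Nothing of single Dam libraries was analysed here.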

Additional observations from a re-analysis of the deposited data

How the results depend on the processing

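Counting overlapping regions once gave 140 units above 0 in OPC and 139 in OL, and shares above 0 of 18.4% and 18.7%. Leaving out clusters of 10 or more regions gave shares of 18.1% and 18.4%. The clustered minus single median was 0.00555 in OPC and 0.124 in OL with overlapping regions once, 0.0261 and 0.106 without the large clusters, 1.47 and 1.33 with a 10 kb limit, and 0.709 and 0.620 with 100 kb. It was 1.25 in OPC with 50 kb between region starts. A Welch test per region called 17 higher and 4 lower in OL, among them 3 higher in the X cluster. It called 0 in the Sfmbt2 cluster, the chromosome 12 clusters and the Mir344 cluster. It also called 0 in the oligodendrocyte lineage, neuronal, let-7, muscle, pluripotent, Meg3 to Mirg, and blood and endothelium lists. The same held for the list for epithelium, liver, gut and pancreas and that of proliferation and p53 clusters. The cause was not tested. The median gap to the narrowest region around a microRNA was 0.0391 in OL, against 0.0354 for the widest. Under the other settings these counts over all microRNA regions were within 1.5 times their values and these shares and gaps within 1 SD, and no named region reversed a call. Counts within single lists and clusters moved more, and after scaling to a common mean and SD the median difference turned from 0.07 to −0.04 in the oligodendrocyte lineage list and from 0.08 to −0.06 in the processing genes. Of the named regions, 94 lost their call under the Welch test, 13 under each rescaling and 13 to 29 with 1 library left out. Leaving out the regions wider than 13 kb was chosen after seeing the data. No paired analysis was possible because the groups share no replicate numbers. Unknown depth limits every value.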
